A study of Homo sapiens and Mus musculus with 8 samples.

Results

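Cholesterol efflux, uptake and liver X receptor (LXR) genes were followed across comparisons of melanoma cells exposed to UV or transfected with Orai1. The set was named gene by gene and holds 9 genes of the 16386 distinct symbols in 5 comparison tables: Abca1, Abcg1, Mylip, Npc1, Npc2, Nr1h2, Nr1h3, Apoe and Lipg. Of these, 8 had a row in each of the 3 tables of the mouse line B16N, Abcg1 gave no value and is not analysed here, and 0 were among the 420 genes of either human table. Apoe and Nr1h3 carried exactly the values of other symbols and were kept apart, which left 6 genes with own values.

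The B16N groups were cells exposed to UV for 2 weeks, cells exposed for 5 weeks, a single clone grown out after transfection with Orai1-WT-CFP, G418 selection and cell sorting, and untreated cells labelled wild type (WT), with 1 sample in each. Orai1 forms the pore of the store-operated Ca2+ channel, and Orai1 itself is not analysed here. The human groups were UV-exposed and untreated WM983 and UACC257 cells. Both exposed human samples are labelled week 2 but titled UV3, and the names of their tables say UV2, so the exposure behind the human values is uncertain. The exposed cells were labelled week 2 or week 5, and both the clone and the untreated cells day 0, so that time in culture and UV cannot be told apart, nor can Orai1 and the choice of 1 clone. No source used here gives the dose or wavelength of UV.

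Cells keep free cholesterol in bounds from both sides. When cholesterol is plentiful, oxysterols made from it activate the LXR receptors, encoded by Nr1h3 (LXR alpha) and Nr1h2 (LXR beta), which pair with retinoid X receptors and switch on the exporters Abca1 and Abcg1, the lipid carrier Apoe, and Mylip, a ubiquitin ligase that marks lipoprotein receptors for degradation. Cholesterol that enters by endocytosis leaves the lysosome through Npc2, which binds it in the lumen, and Npc1, which takes it across the membrane. Lipg encodes endothelial lipase, a secreted phospholipase that acts on high-density lipoprotein. In melanoma, LXR activation and secreted apolipoprotein E have been described as restraints on metastatic spread.

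The members passed the threshold in different comparisons and not as a block. After 2 weeks of UV, Abca1 and Lipg fell and Npc2 rose by a small amount. In the Orai1 clone, Mylip rose and Npc1 fell by a small amount. After 5 weeks of UV no member passed the threshold. Nr1h2 passed in no comparison. All changes are given on the log2 scale as treated over control, with the standard error (SE) that the authors' deposited table implies, and a gene was called where the deposited p-value, after Benjamini-Hochberg adjustment across its whole table, was under 0.05.

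At 2 weeks, 3 of the 6 genes with own values were called, 1 higher and 2 lower, where 8.99% of all such genes in the table were called, 3.71% higher and 5.28% lower. At 5 weeks the count was 0 of 6, against a background of 5.51% (3.53% higher and 1.98% lower), and 2 of 6 had an unadjusted p under 0.05 (Npc1 and Npc2, both with positive values), where 15.6% of genes did. In the clone 2 of 6 were called, 1 higher and 1 lower, against a background of 25.9% (12.0% higher and 13.9% lower), which leaves the count near what the table as a whole gave. The median change of the 6 genes was 0.028 (2 weeks), 0.17 (5 weeks) and 0.12 (clone), beside 0.020, 0.0069 and 0.033 over all genes with own values. With a minimum change of 2-fold the count was 1 at 2 weeks (Lipg, background 0.394%) and 1 in the clone (Mylip, background 7.79%). The members were chosen with earlier results of these data known, so a count above its background cannot show that the set stands out. The labels give 1 sample per group and no source states how many libraries a deposited p-value rests on, so the tests compare libraries and no difference had a replicate check.

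**Figure D1:**
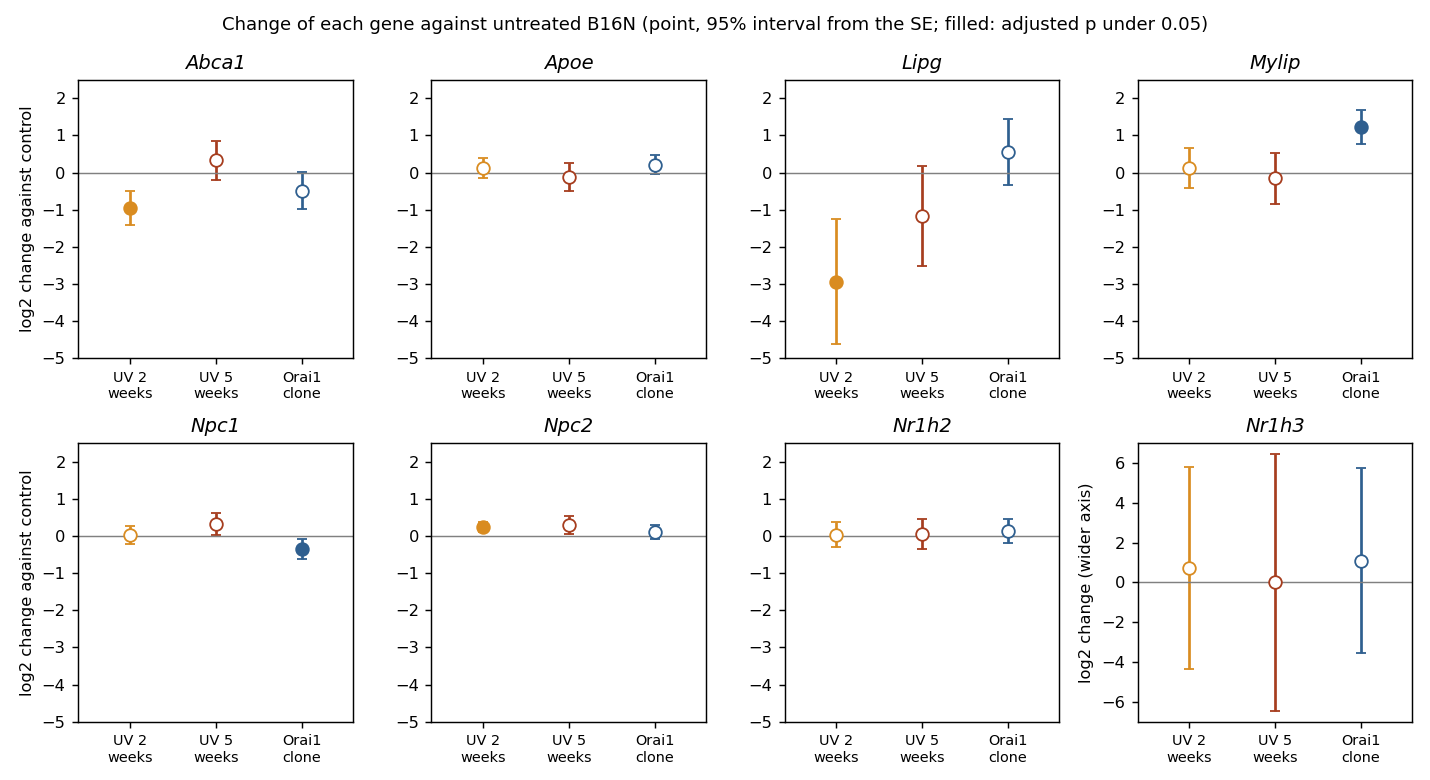
Log2 change against untreated B16N for each of the 8 genes with a row, at 2 weeks of UV, 5 weeks of UV and in the Orai1 clone. Points are the authors' changes with the sign turned to treated over control, bars are 95% intervals from the SE, and filled points passed an adjusted p of 0.05. Abca1 and Lipg lie below 0 at 2 weeks, Mylip lies above 0 in the clone, and the axis of Nr1h3 is wider than the others because its SE was 2.37 to 3.30.

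Abca1, which moves cholesterol and phospholipid out of the cell onto lipid-poor apolipoproteins, was the only exporter among the members that had values. In the authors' deposited table its fall after 2 weeks of UV was -0.95 on the log2 scale with an SE of 0.23 (adjusted p = 0.00153), a level 0.517 times that of control cells with a 95% interval of 0.376 to 0.711 times. After 5 weeks its value was 0.34 (SE 0.27, adjusted p = 0.744), and in the clone -0.48 (SE 0.25, adjusted p = 0.184) per the authors' deposited tables. Its change was therefore below 0 with an interval clear of 0 at 2 weeks, while the interval at 5 weeks ran from -0.19 to 0.86 and that of the clone from -0.98 to 0.012. From low to high the samples ran UV at 2 weeks, clone, control and UV at 5 weeks, and no neighbours in this order passed a test of their difference. The ends of the order did differ: Abca1 was 1.29 higher on the log2 scale at 5 weeks than at 2 weeks (SE 0.35, adjusted p = 0.0123), computed from the authors' deposited tables, a ratio of 2.44 with an interval of 1.51 to 3.95.

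The genes whose changes lay nearest to those of Abca1 were Mal, Ddx3y, Itga1, Med13 and Dtwd2. Nearness was the Euclidean distance over the 3 log2 changes, among 7168 genes with own values and an SE of at most 0.5 in each table. Mal, at a distance of 0.25, stood at -0.76 at 2 weeks, 0.46 at 5 weeks and -0.38 in the clone per the authors' deposited tables. Dtwd2, the last of the 5, had a distance of 0.41. The SE of Abca1 itself was 0.23, 0.27 and 0.25 at 2 weeks, 5 weeks and in the clone. Distances of this size are thus near the error of the values, and the ranking is not firm. The 3 comparisons share the control sample, and what that sample contributed to the likeness was not tested.

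Apoe encodes the apolipoprotein that carries cholesterol away from many cells outside the liver. Its row was the same in every digit as that of Cbx8, a Polycomb group gene, in all 3 mouse tables, so the values cannot be assigned to Apoe alone. They were 0.12 (SE 0.13) at 2 weeks, -0.13 (SE 0.19) at 5 weeks and 0.21 (SE 0.13) in the clone per the authors' deposited tables, with adjusted p-values of 0.895, 0.965 and 0.308. The 95% intervals ran from -0.14 to 0.38, from -0.51 to 0.25 and from -0.049 to 0.47. If the row is that of Apoe, changes of 2-fold lie outside each of these intervals.

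Lipg had the largest change of the set and also one of its larger errors. In the authors' deposited table its change after 2 weeks of UV was -2.94 on the log2 scale with an SE of 0.86 (adjusted p = 0.0119), a fall to 0.130 times the control level, with an interval of 0.0406 to 0.419 times. At 5 weeks its value was -1.16 (SE 0.68, adjusted p = 0.507) and in the clone 0.54 (SE 0.45, adjusted p = 0.504) per the authors' deposited tables. Both UV values lay below 0 and the clone's above it, and the SE was smallest where the value was highest. Lipg stood 3.48 higher on the log2 scale in the clone than at 2 weeks of UV (SE 0.97, adjusted p = 0.00452), while the difference between 5 and 2 weeks, 1.78 with an interval of -0.38 to 3.93, did not pass (adjusted p = 0.581), both computed from the authors' deposited tables. At 2 weeks 85.8% of genes with own values had a smaller SE than Lipg.

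Uptake was represented by Mylip, whose product lowers the number of lipoprotein receptors at the cell surface. In the authors' deposited table Mylip rose by 1.22 in the clone with an SE of 0.23 (adjusted p = 3.17e-06), a level 2.33 times that of control cells with an interval of 1.70 to 3.20 times. Its values under UV were 0.14 (SE 0.27, adjusted p = 0.959) at 2 weeks and -0.16 (SE 0.36, adjusted p = 0.965) at 5 weeks per the authors' deposited tables. The clone stood apart from both: Mylip was 1.08 higher than at 2 weeks of UV (SE 0.36, adjusted p = 0.0251) and 1.38 higher than at 5 weeks (SE 0.43, adjusted p = 0.0248), computed from the authors' deposited tables.

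Markers of other cell types were read beside these results. All 9 pigment cell markers had a row in each mouse table, and of the 8 with own values 6 were higher at 2 weeks, 7 at 5 weeks, and 4 in the clone, where 1 was lower. Of all genes with own values 3.71% were higher at 2 weeks, 3.53% at 5 weeks and 12.0% in the clone, where 13.9% were lower. Sox10, counted apart because it shared its values with another symbol, passed at 5 weeks in the other direction, with a fall of 0.60. Of 10 macrophage markers, 4 had a row in the clone's table and 5 in that of UV at 5 weeks, with Lyz2 alone having own values. Lyz2, the macrophage lysozyme gene, rose by 2.78 in the clone (SE 0.64, adjusted p = 1.77e-04) and by 3.47 at 5 weeks (SE 0.70, adjusted p = 6.84e-05) per the authors' deposited tables, and had a value of 0.38 (SE 0.94, adjusted p = 0.959) at 2 weeks. The other macrophage markers with a row shared values with other symbols, and 0 of them passed in any of the 3 comparisons. In the clone and at 5 weeks Cd68 had a value below 0 and the others with a row had values above 0. Adgre1, Csf1r, Itgam and Mrc1 gave no value in any of the 3 comparisons. Of 7 fibroblast markers, 0 had a row in the clone's table and 1 in each UV table, which did not pass. Their part in the rise of Mylip was not tested, and with no levels in the tables, fewer cells of a type and less RNA per cell cannot be told apart.

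The lysosomal pair passed the threshold in different comparisons, Npc2 at 2 weeks of UV and Npc1 in the clone. In the authors' deposited table Npc2 rose by 0.25 at 2 weeks with an SE of 0.072 (adjusted p = 0.0115), which is 1.19 times the control level with an interval of 1.08 to 1.31 times. It was among the most precisely measured genes, since 0.595% of genes had a smaller SE there. The value at 5 weeks was slightly larger, 0.29, but with an SE of 0.12 it did not pass (adjusted p = 0.229), and that of the clone was 0.097 (SE 0.097, adjusted p = 0.616) per the authors' deposited tables. The difference between 5 and 2 weeks was 0.040 with an interval of -0.24 to 0.32, so the call at one time and not at the other does not show that they differ.

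In the authors' deposited table Npc1 fell by 0.35 in the clone with an SE of 0.13 (adjusted p = 0.0476), which is 0.787 times the control level with an interval of 0.655 to 0.945 times. This call rested on the edge of the threshold and was lost when the median change of precisely measured genes was set to 0 (-0.33, adjusted p = 0.0659), computed from the authors' deposited tables. Npc1 stood at 0.025 (SE 0.12, adjusted p = 0.966) at 2 weeks and at 0.32 (SE 0.15, adjusted p = 0.317) at 5 weeks per the authors' deposited tables. Set against UV at 5 weeks directly, Npc1 was lower in the clone by a log2 difference of -0.67 (SE 0.21, adjusted p = 0.0234), computed from the authors' deposited tables, or 0.629 times, with an interval of 0.476 to 0.831 times. Against UV at 2 weeks the difference of -0.37 did not pass (SE 0.18, adjusted p = 0.205), computed from the authors' deposited tables.

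The receptor genes gave no call. Nr1h2 stood at 0.030 (SE 0.17) at 2 weeks, 0.051 (SE 0.21) at 5 weeks and 0.14 (SE 0.17) in the clone per the authors' deposited tables, with adjusted p-values of 0.973, 0.965 and 0.701. Its 95% intervals, -0.31 to 0.37, -0.35 to 0.45 and -0.18 to 0.47, leave out a 2-fold change in either direction in each comparison. None of the 3 differences between treated samples passed for Nr1h2 either, the largest being 0.11 between the clone and UV at 2 weeks (SE 0.24, adjusted p = 0.894), computed from the authors' deposited tables.

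Nr1h3 could not be read at this precision. For UV at 2 and 5 weeks and the clone its SE was 2.58, 3.30 and 2.37, larger than those of 99.7% to 99.9% of genes with own values, and a change of 6.03 to 10.0 on the log2 scale would have been needed to pass. Its row equalled those of 7 other symbols at 2 weeks, 12 at 5 weeks and 4 in the clone, and the symbols differed from table to table, unlike the constant pair of Apoe and Cbx8. The fitted values are not given as changes for this reason.

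**Figure D2:**
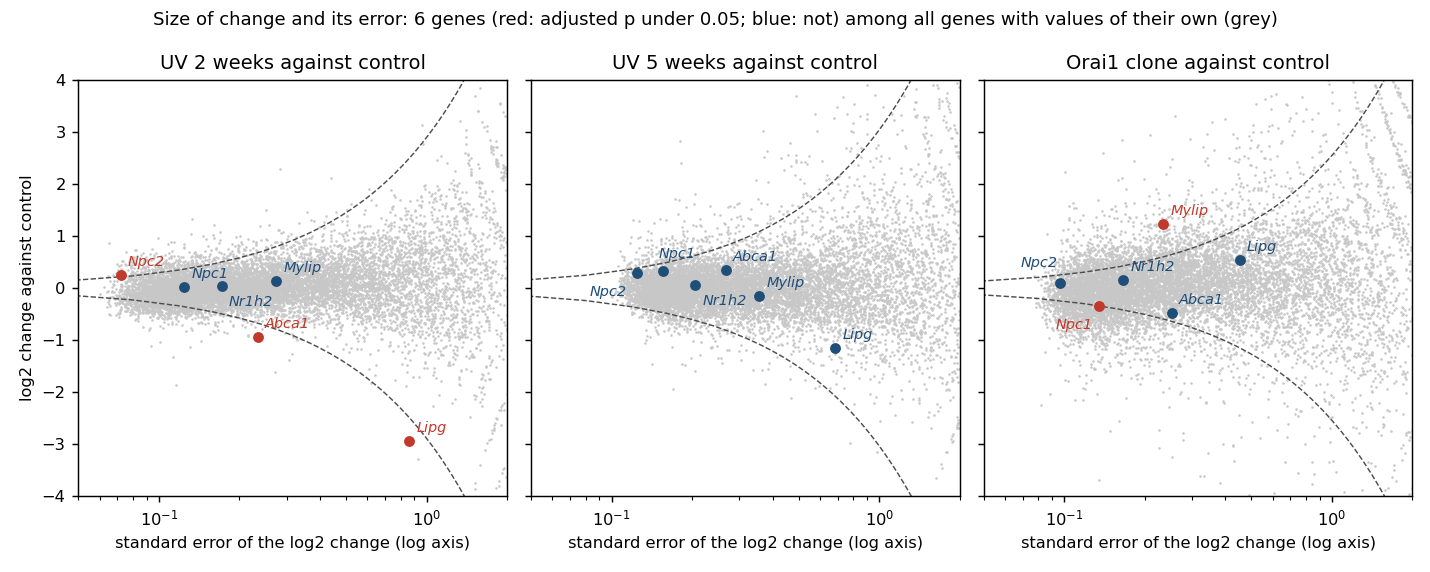
Log2 change against control (vertical axis) and its standard error (horizontal, log axis) for the 6 genes with own values among all such genes, in a panel for each mouse comparison. Dashed lines mark the change needed for an adjusted p of 0.05, red points passed, and grey points beyond the axes are not drawn. Of the 6 genes, Npc2 has the smallest SE and Lipg the largest in each panel, and Npc1 lies on the line in the clone.

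Treated samples were then set against one another through the difference of their changes divided by its SE (a normal test), with p-values adjusted over 10166 to 10278 genes with own values in both tables. The value of the common control cancels in such a difference, but its spread is counted in both SEs. Between 5 and 2 weeks of UV, 1 of the 6 genes differed (Abca1, higher at 5 weeks), against a background of 3.75%, of which 2.31% higher. Between the clone and UV at 2 weeks, 2 of 6 differed (Lipg and Mylip, both higher in the clone), against 13.2%, of which 5.25% higher. Between the clone and UV at 5 weeks, 2 of 6 differed (Mylip higher and Npc1 lower in the clone), against 6.18%, of which 1.49% higher and 4.69% lower. Abca1 did not pass in either of the comparisons with the clone, at 0.47 against UV at 2 weeks (interval -0.21 to 1.14) and -0.82 against UV at 5 weeks (interval -1.54 to -0.099, adjusted p = 0.234), computed from the authors' deposited tables.

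**Figure D3:**
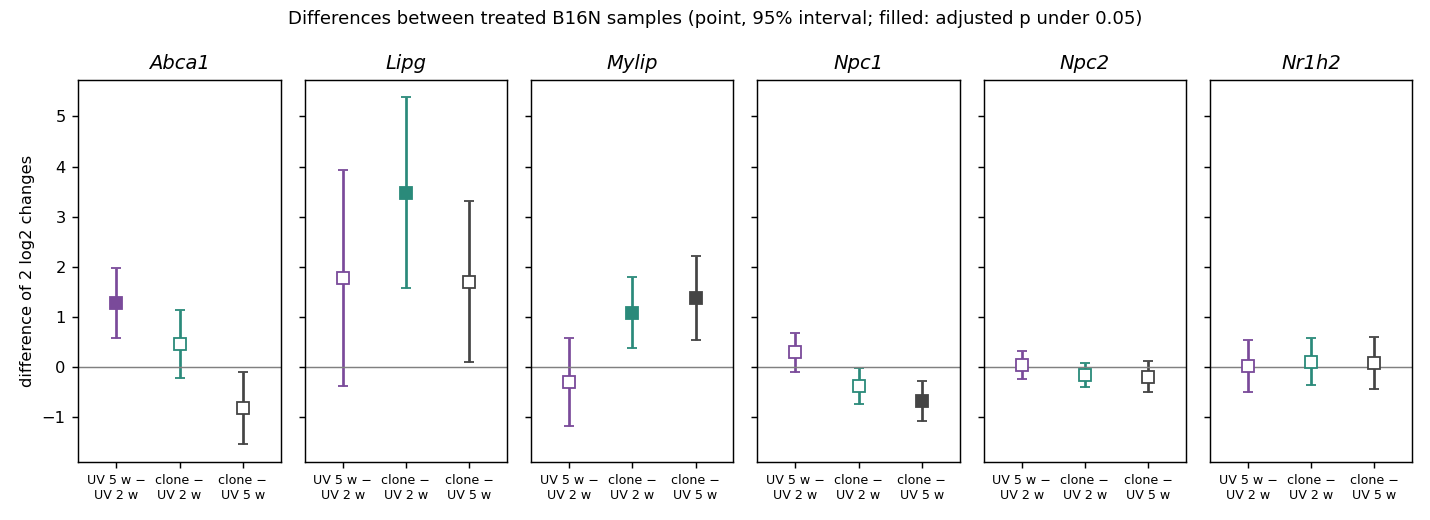
Difference of 2 log2 changes for the 6 genes with own values: UV at 5 weeks minus UV at 2 weeks, clone minus UV at 2 weeks, and clone minus UV at 5 weeks. Bars are 95% intervals and filled squares passed an adjusted p of 0.05. Abca1 passes between the UV times at 1.29, Lipg between the clone and UV at 2 weeks at 3.48, Mylip against both UV times, and Npc1 against UV at 5 weeks at -0.67.

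The genes around the set were read from 7 further lists, some of which share genes. Other LXR targets did not move as one. Of 7 with own values 0 were higher and 1 lower at 2 weeks, 1 of 7 was higher at 5 weeks, and 1 of 6 was higher and 1 lower in the clone. Over all genes with own values, the shares called were 3.71% higher and 5.28% lower at 2 weeks, 3.53% higher and 1.98% lower at 5 weeks, and 12.0% higher and 13.9% lower in the clone. The median over the other LXR targets was 0.13 at 2 weeks, 0.49 at 5 weeks and 0.010 in the clone, beside table medians of 0.020, 0.0069 and 0.033. Scd1, a desaturase gene that both LXR and SREBP-1 induce, was the one that passed in all 3, at -0.33 (SE 0.098), 1.06 (SE 0.14) and -0.27 (SE 0.10) for 2 weeks, 5 weeks and the clone per the authors' deposited tables. Srebf1, which encodes SREBP-1 and is itself an LXR target, rose in the clone (0.51, SE 0.16, adjusted p = 0.00995) and had a value of 0.49 at 5 weeks that did not pass (SE 0.22, adjusted p = 0.268) per the authors' deposited tables. Scd1 was 1.39 higher at 5 than at 2 weeks (SE 0.17, adjusted p = 1.05e-12) and lower in the clone than at 5 weeks, with a difference of -1.33 (SE 0.17, adjusted p = 6.85e-12), both computed from the authors' deposited tables.

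Among cofactors of nuclear receptors and oxysterol enzymes, 2 of 8 were lower at 2 weeks, 1 was higher at 5 weeks, and 3 were lower in the clone, where 5.28%, 3.53% and 13.9% of all genes were called in those directions. The list median was -0.33 at 2 weeks, 0.11 at 5 weeks and -0.28 in the clone. The list also held Trap1, a mitochondrial chaperone gene, which passed in none. Ncor1, a corepressor that holds unliganded receptors silent, fell by 0.47 at 2 weeks (SE 0.12, adjusted p = 0.00140), and the coactivator gene Ncoa1 fell by 0.61 (SE 0.15, adjusted p = 0.00136) per the authors' deposited table. In the clone Ncoa1 fell by 0.62, Ncoa2 by 0.42 and Ncoa5 by 0.38 per the authors' deposited table. Nrip1, a corepressor that also works with LXR, rose by 1.08 at 5 weeks (SE 0.30, adjusted p = 0.00957) per the authors' deposited table. Its change there was higher than at 2 weeks by 1.48 (SE 0.37, adjusted p = 0.00381), computed from the authors' deposited tables.

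Genes that carry cholesterol between lysosome, endoplasmic reticulum and stores had 0 of 14 called at 2 weeks, 2 higher at 5 weeks and 4 lower in the clone, where 8.99% of all genes were called at 2 weeks, 3.53% were higher at 5 weeks and 13.9% lower in the clone. At 5 weeks Lamp2, a lysosomal membrane protein gene, rose by 1.10 (SE 0.19, adjusted p = 7.17e-07) and Lipa, whose lipase frees cholesterol from its esters upstream of Npc2, rose by 0.69 (SE 0.12, adjusted p = 4.00e-06) per the authors' deposited table. In the clone, beside the fall of Npc1, Gramd1c fell by 1.45 (SE 0.49), Osbpl1a by 0.80 (SE 0.15), Lamp2 by 0.60 (SE 0.19) and Lamp1 by 0.41 (SE 0.11) per the authors' deposited table. Gramd1c and Osbpl1a encode sterol-binding proteins of membrane contacts. Lamp2 and Lipa were both lower in the clone than at 5 weeks of UV, by log2 differences of -1.70 (SE 0.26, adjusted p = 1.58e-08) and -0.47 (SE 0.16, adjusted p = 0.0455), computed from the authors' deposited tables. The list median was -0.14 at 2 weeks, 0.029 at 5 weeks and -0.21 in the clone, beside the table medians of 0.020, 0.0069 and 0.033.

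SREBP raises uptake and synthesis when cholesterol is short. The list for its control had 1 of 13 genes higher and 1 lower at 2 weeks, 2 higher at 5 weeks, and 3 higher in the clone. Of all genes 3.71% and 5.28% were higher and lower at 2 weeks, 3.53% higher at 5 weeks and 12.0% higher in the clone. The list median was 0.047 at 2 weeks, 0.11 at 5 weeks and 0.11 in the clone. The list holds genes that restrain SREBP beside those that serve it, so these counts and medians do not measure SREBP activity. Insig1, which retains SREBP in the endoplasmic reticulum and is induced by it, rose in each, by 0.68, 0.92 and 1.18 at 2 weeks, 5 weeks and in the clone per the authors' deposited tables. In the clone the isomerase gene Idi1 rose by 1.17 (SE 0.28, adjusted p = 3.19e-04) and Sqle, which encodes squalene epoxidase, by 0.30 (SE 0.10, adjusted p = 0.0155) per the authors' deposited table. Sqle also rose at 5 weeks, by 0.40 (SE 0.13, adjusted p = 0.0367), per the authors' deposited table. Mbtps2, a protease gene that releases SREBP, fell by 0.46 at 2 weeks (SE 0.12, adjusted p = 0.00458) per the authors' deposited table.

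The 3 remaining lists gave few calls, beside 8.99% of all genes called at 2 weeks, 5.51% at 5 weeks and 25.9% in the clone. Of uptake genes with own values 0 passed, among 3 at either UV time and 4 in the clone. The lipoprotein receptor gene Lrp1 shared its values with another symbol and was counted apart. That row passed at 5 weeks (1.23, SE 0.37, adjusted p = 0.0241) and in the clone (1.08, SE 0.29, adjusted p = 0.00137) per the authors' deposited tables. Of lipases and their regulators beside Lipg, 1 of 4 passed at 2 weeks, Furin, a protease gene, which fell by 0.44 (SE 0.14, adjusted p = 0.0262) per the authors' deposited table, while the clone (0 of 5) and 5 weeks of UV (0 of 4) gave no call. Of other lipid exporters and apolipoproteins, neither UV at 2 weeks (0 of 6) nor the clone (0 of 7) gave a call. At 5 weeks 1 of 7 passed, Abca5, a lysosomal relative of Abca1, which rose by 1.19 (SE 0.31, adjusted p = 0.00487) per the authors' deposited table. Symbols with a row in common with another were counted apart and passed 1 time at 2 weeks, 1 time at 5 weeks and 5 times in the clone over all 7 lists.

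**Figure D4:**
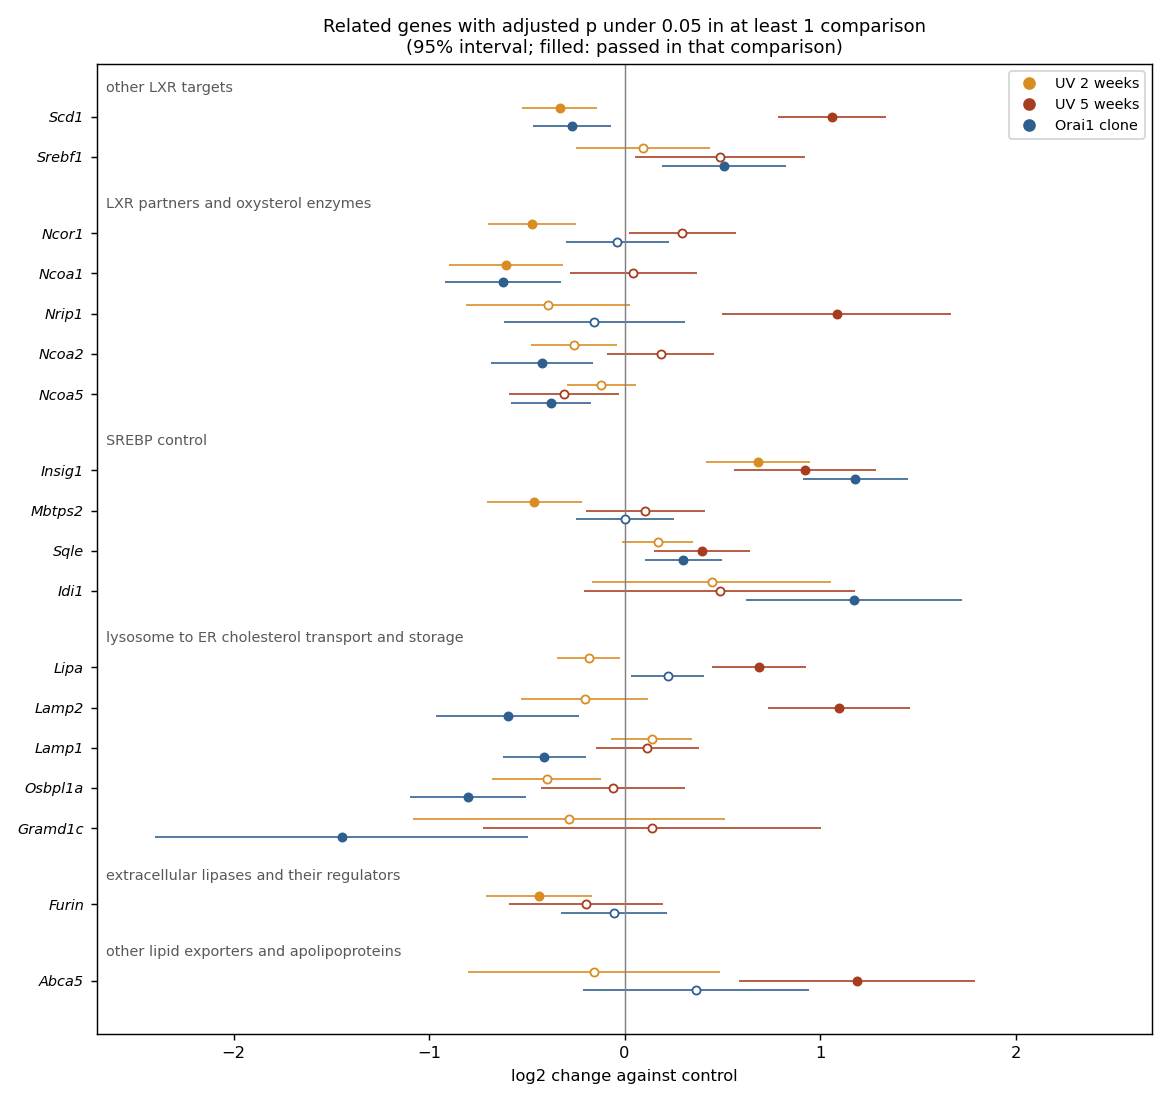
Log2 change against control (horizontal axis) of the genes from the 7 further lists that passed an adjusted p of 0.05 in at least 1 mouse comparison, with own values and an SE of at most 1. Bars are 95% intervals and filled points passed in that comparison. Insig1 lies above 0 in all 3 comparisons, and Scd1 and Lamp2 lie above 0 at 5 weeks and below 0 in the clone.

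In the human tables the sign of a change could not be read, since nothing in them shows which sample stands in the numerator. Both tables list the same 420 genes, of which 390 have a p-value under 0.001 in WM983 and 0 do in UACC257. How these 420 genes were chosen is not given, and a choice by their p-value in WM983 would by itself give such a contrast. The values below therefore cannot show that the 2 lines differ, and a difference between them was not tested. INSIG1, HMGCS1, IDI1 and STARD4 had deposited log2 values of one sign in WM983, at 2.49, 1.28, 1.37 and 2.16, and LPL one of the opposite sign at -1.16, per the authors' deposited table. In UACC257 these genes had values between -0.31 and 0.34 per the authors' deposited table, with unadjusted p-values of 0.0393 for INSIG1 and of 0.108 and above for the others.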

How the data were processed

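The series holds RNA-seq of 8 samples from 3 melanoma lines, 1 per group. The authors deposited 5 tables of comparisons, each with a log2 fold change, a test statistic (a score) and a p-value per gene, per the file headers. They hold no counts or levels, so depth is unknown. GRCm38, a mouse build, is the one build in the submitters' processing notes, and no source used here gives one for the human tables. Aligner, counter and test are not given in the sources used here.

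Positive mouse values mean higher in the treated sample: the deposited sign was turned, since all 1357 genes found in a single mouse table had negative deposited values and 0 had positive ones. Deposited p-values equal the two-sided normal p of the score (largest gap 5.0e-08), so the SE is the log2 change divided by the score. The 95% intervals are normal intervals from this SE and cover no replicate error. P-values were Benjamini-Hochberg adjusted over all usable rows (14648 at 2 weeks, 14821 at 5 weeks and 15041 for the clone), leaving out 1 row without a symbol per table and 3 without a p-value for the clone. Differences between treated samples were tested with both SEs added in squares.

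The members and lists were chosen with earlier results of these data known. Named were all members and, per list and comparison, up to 4 passing genes of SE at most 1. Some genes are not reported here and were left out of the lists and their counts. Trap1, Lrp1, Sox10 and Cd68 were named after their values were seen. The procedure was run on simulated data with noise drawn from the deposited SEs, which cannot show whether those SEs cover replicate error. Python 3.11.15, numpy 2.4.6, pandas 2.3.3, scipy 1.17.1 and matplotlib 3.10.9 were used.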

Additional observations from a re-analysis of the deposited data

Results flagged for a closer look

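Abca1 was marked because its change under UV differed between the times of exposure by a test of the difference itself. Its log2 change was 0.34 at 5 weeks and -0.95 at 2 weeks in the authors' deposited tables, a difference of 1.29 (SE 0.35, adjusted p = 0.0123). Both changes use the same control, and each time point is 1 sample.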

How the results depend on the processing

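Of 175 recomputed values of single genes, 162 kept their direction and their side of the threshold and 13 kept their direction but no longer passed. Only setting the median to 0 altered the log2 changes, so under the other settings a direction could not turn. The fold minimums and the stricter adjusted p could only remove calls, so genes not called before had to stay so. The count of 162 is in large part fixed by this and does not measure robustness. With a 2-fold minimum the number of genes passing was 1 at 2 weeks and 1 in the clone. With a 1.5-fold minimum it was 2 at 2 weeks, where Npc2 was lost, and 1 in the clone. At an adjusted p under 0.01 the number was 1 at 2 weeks, 1 in the clone, 0 between 5 and 2 weeks of UV, 1 between the clone and 2 weeks and 0 between the clone and 5 weeks. With the median change of genes of SE at most 0.3 set to 0 it was 1 in the clone, where Npc1 was lost. With genes of SE at most 0.5 alone it was 2 at 2 weeks and 1 between the clone and 2 weeks, because Lipg was no longer tested. Leaving out symbols with shared values, or keeping them in the differences, moved no count by more than 1.5 times. The count at 5 weeks was 0 in each of the 6 alternatives. The fold minimums and the stricter adjusted p could not have raised it from 0, so only the other alternatives could have changed it. No paired analysis was possible because each group had 1 sample, and no replicate could be left out. Precision limits Nr1h3 and Lipg most.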

Other observations

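The pairing of Apoe with Cbx8 was not an isolated case. There were 844 sets of symbols that had one value in all 3 mouse tables with the same symbols in each set, and 635 of them, holding 1310 symbols, had an SE of at most 0.5 in each table. None of the other members was in such a set.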
